A study of Mus musculus with 8 samples.

Results

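The subunits of the mitochondrial oxidative phosphorylation system that are encoded in the nucleus were followed in olfactory mucosa of newborn mice lacking Emx2 in olfactory sensory neurons (OSNs). Members were the rows of the array table with a single gene symbol that begins with Nduf followed by a, b, c, s or v, with Uqcr, with Cox followed by a digit from 4 to 8, or with Atp5. The rule found 110 of the 35557 rows, which stand for 85 genes. Of these, 34 genes encode subunits of complex I, 8 subunits of complex III, 19 subunits of complex IV or their close relatives, and 17 subunits of ATP synthase. The other 7, Ndufaf1 to Ndufaf7, match the rule by name but encode assembly factors of complex I, which are not part of the finished enzyme. They are described separately. The rule itself uses symbols and no measured value, though it was set with earlier results of these data known.

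Each of the 8 samples was total RNA of olfactory mucosa from mice aged P1 (postnatal day 1) on a mixed 129 x C57BL/6J background, hybridised to its own GeneChip Mouse Gene 1.0 ST array. The 4 Emx2 knockout samples were 123Cre:Emx2(fl/fl), with both Emx2 alleles floxed and Cre recombinase expressed from the immature OSN stage onward. The 4 control littermates held 2 genotypes, in which no more than 1 allele could recombine. Controls 1 and 4 were 123Cre:Emx2(fl/+) and carried Cre, and controls 2 and 3 were Emx2(fl/fl) without Cre. At least 1 floxed Emx2 allele was thus shared by all samples, and Cre was shared by the knockouts and controls 1 and 4. The deletion is confined to cells of the OSN lineage in which the transgene acts, and the transgene does not act in every OSN. The mucosa also holds supporting, basal, glandular, respiratory, connective and blood cells. The labels number the samples A1 to A8 without saying what the number stands for. Knockouts 1 and 2 and controls 1 and 2 were numbered A1 to A4, and knockouts 3 and 4 and controls 3 and 4 were numbered A5 to A8. Nothing in the labels says whether a sample was 1 mouse or a pool, so that p-values measure only the spread between these samples.

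Oxidative phosphorylation makes most of the ATP of a neuron. Complex I takes electrons from NADH and complex II from succinate, and both hand them to ubiquinone. Complex III passes them to cytochrome c, and complex IV passes them on to oxygen. Complexes I, III and IV pump protons out of the matrix, and ATP synthase lets them return through a rotating ring of c subunits that drives the catalytic head. Some subunits of these pumping complexes and of ATP synthase are made from mitochondrial DNA, and the rest, measured here, are made from nuclear genes and imported. Nuclear respiratory factor 1 (NRF-1), the ETS family factor GABP, YY1 and estrogen-related receptors (ERR), with the coactivator PGC-1 alpha, are known regulators of many of these genes.

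All values below are the deposited log2 values, and a difference is knockout minus control on that scale. Emx2 mRNA was 9.80, 9.86, 10.01 and 9.93 in knockouts 1 to 4, against 10.80, 10.86, 11.00 and 10.72 in controls 1 to 4, a difference of -0.94 (SE 0.082, adjusted p 0.0014, limma). Omp, the mature OSN marker, averaged 12.88 in knockouts and 12.94 in controls (difference -0.06, adjusted p 1). Gap43, a growth protein of immature OSNs, averaged 11.34 in knockouts and 11.56 in controls (difference -0.23, adjusted p 0.564). Both OSN markers were thus among the bright rows of every array. The array of knockout 2 stood apart: it correlated with the other 7 arrays at 0.979 on average, where each of those lay between 0.988 and 0.991, and its weight among the arrays, as estimated by limma, was 0.17. What the differences become without it is given for the named members further on.

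Promoter windows show which recognition letters of these regulators lie at the members. RefSeq windows of 300 bases (250 before and 50 after the annotated start, build GRCm38.p6) were available for 70 of the 85 genes. Each window was searched on both strands for NRF-1 (GCATGCGC), ETS (CCGGAAG), YY1 (AAGATGGCG), the CCAAT box (CCAAT) and ERR (TCAAGGTCA). The ETS letters end and the YY1 letters begin with AAG, so that these matches can overlap. The first 6 letters of the NRF-1 motif, GCATGC, read the same on both strands, so that the run GCGCATGCGC holds the motif once on each strand. NRF-1 letters were in the windows of 11 of 70 members (15.7%), against 3.05% of all 27025 genes with a window and 3.93% of the 17491 protein-coding ones. ETS letters were in 16 members (22.9%, against 9.93% of all genes and 12.9% of protein-coding genes), and YY1 letters in 7 (10%, against 1.64% and 2.14%). CCAAT was in 30 members (42.9%), close to the shares of all genes (41.1%) and of protein-coding genes (42.3%). ERR letters were in 1 member (1.43%, against 0.466% of all genes). The median GC content was 57.3% in the members' windows, 56.3% in those of protein-coding genes and 52.7% in all windows. A match is a description of the letters and not evidence of a bound site.

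The windows below are those of the 5 members with the widest range over the samples (Uqcr11, Ndufaf4, Ndufb8, Uqcrc1 and Atp5k), of Cox8b, which had the lowest difference of all members, and of Ndufa11, which had the highest difference in complex I. They run 5′ to 3′ on the strand of the gene, and capitals mark NRF-1 and ETS letters. Positions are counted from the annotated start, which is base 1, and the base before it is -1.
Uqcr11: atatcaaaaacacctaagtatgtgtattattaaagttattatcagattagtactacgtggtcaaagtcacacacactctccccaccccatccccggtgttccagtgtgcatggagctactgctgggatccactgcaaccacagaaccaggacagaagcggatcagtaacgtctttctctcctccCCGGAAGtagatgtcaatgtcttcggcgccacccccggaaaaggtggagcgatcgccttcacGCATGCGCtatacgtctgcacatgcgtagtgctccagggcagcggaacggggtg
Uqcrc1: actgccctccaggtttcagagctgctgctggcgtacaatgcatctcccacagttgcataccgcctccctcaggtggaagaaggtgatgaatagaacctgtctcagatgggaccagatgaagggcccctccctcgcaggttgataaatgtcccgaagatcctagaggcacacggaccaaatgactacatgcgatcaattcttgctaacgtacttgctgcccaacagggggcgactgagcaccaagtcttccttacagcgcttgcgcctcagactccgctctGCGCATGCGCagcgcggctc
Atp5k: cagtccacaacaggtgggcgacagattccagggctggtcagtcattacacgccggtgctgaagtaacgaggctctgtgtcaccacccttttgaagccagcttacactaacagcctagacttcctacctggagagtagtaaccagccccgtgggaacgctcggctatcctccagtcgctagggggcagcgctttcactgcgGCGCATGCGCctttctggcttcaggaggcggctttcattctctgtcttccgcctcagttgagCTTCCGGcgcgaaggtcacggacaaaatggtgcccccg
Ndufaf4: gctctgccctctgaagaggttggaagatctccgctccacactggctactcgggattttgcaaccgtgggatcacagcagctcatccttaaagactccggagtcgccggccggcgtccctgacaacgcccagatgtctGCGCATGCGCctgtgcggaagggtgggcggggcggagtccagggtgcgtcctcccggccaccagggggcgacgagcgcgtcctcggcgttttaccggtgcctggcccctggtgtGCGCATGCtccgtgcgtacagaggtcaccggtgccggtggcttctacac
Ndufb8: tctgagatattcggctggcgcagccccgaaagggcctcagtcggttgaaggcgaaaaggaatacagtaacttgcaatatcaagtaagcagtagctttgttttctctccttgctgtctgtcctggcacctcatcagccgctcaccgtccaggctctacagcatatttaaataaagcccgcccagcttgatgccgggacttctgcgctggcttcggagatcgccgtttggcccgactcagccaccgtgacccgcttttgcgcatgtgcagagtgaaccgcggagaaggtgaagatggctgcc
Cox8b: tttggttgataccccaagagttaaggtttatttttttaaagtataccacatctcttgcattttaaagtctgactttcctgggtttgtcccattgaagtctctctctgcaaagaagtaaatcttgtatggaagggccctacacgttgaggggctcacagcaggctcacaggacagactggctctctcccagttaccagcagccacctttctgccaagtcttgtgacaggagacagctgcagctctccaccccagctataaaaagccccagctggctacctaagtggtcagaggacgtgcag
Ndufa11: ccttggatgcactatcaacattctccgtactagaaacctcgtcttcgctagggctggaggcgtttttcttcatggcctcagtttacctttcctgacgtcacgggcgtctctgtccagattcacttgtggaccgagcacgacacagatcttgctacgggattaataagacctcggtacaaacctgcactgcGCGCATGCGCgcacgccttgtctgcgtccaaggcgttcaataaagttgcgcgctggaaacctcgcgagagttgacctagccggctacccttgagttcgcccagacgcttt
The Uqcr11 window (chr10:80406772-80407071, minus strand) held an ETS match whose first base is at -66 and an NRF-1 match at -4. The Uqcrc1 window (chr9:108936398-108936697, plus strand) held NRF-1 letters past the start, at 33 on the gene's strand and at 31 on the other. In the Atp5k window (chr5:108434350-108434649, minus strand) they lay at -48 and -50, with ETS letters of the opposite strand at 13. The Ndufaf4 window (chr4:24897833-24898132, plus strand) held NRF-1 letters at -111 and -113 and again, on the opposite strand, at 2. In the Ndufa11 window (chr17:56717512-56717811, plus strand) they lay at -58 and -60. The Ndufb8 window (chr19:44555393-44555692, minus strand) and the Cox8b window (chr7:140900397-140900696, minus strand) held none of the letters searched. All 11 members with NRF-1 letters had a median difference of 0.0062, and the 59 without them had -0.022.

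No member differed between Emx2 knockout and control mucosa at an adjusted p under 0.05, and none did at an unadjusted p under 0.05 either. Over all 23410 rows with a gene symbol, limma called 0.359% at the adjusted threshold (84 rows) and 6.1% at the unadjusted one (1427 rows). Among the 110 member rows, the lowest unadjusted p was 0.086. The methods' t-test called 0 member rows after adjustment and 1 before it, where it called 7.08% of all rows. The median difference over the 85 genes was -0.019, with 39 genes above 0 and 46 below, beside 0.0041 over all rows. With arrays centred on mature OSN markers it was 0.12, beside 0.14 over all rows. The differences ran from -0.21 for Cox8b to 0.35 for Uqcr11. In 2 of the 110 rows the 4 knockout samples did not overlap the 4 controls, against 4.52% of all rows. Less RNA per cell and fewer cells of a type cannot be told apart in these bulk samples.

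How small a change the arrays could show follows from the spread. The median standard error over the 85 genes was 0.114, and the median 95% confidence interval reached 0.258 to either side of the estimate. All 85 intervals included 0. Of these, 79 lay wholly within -0.5 to 0.5 and 38 within -0.3 to 0.3. The 6 genes whose intervals went further were Uqcr11, Atp5l, Ndufaf4, Atp5k, Cox8b and Uqcrc1. A difference of 1 in either direction, which is a change by a factor of 2, lay outside all of them. The residual SD was also slightly larger for members (median 0.170) than over all rows (0.153).

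**Figure D1:**
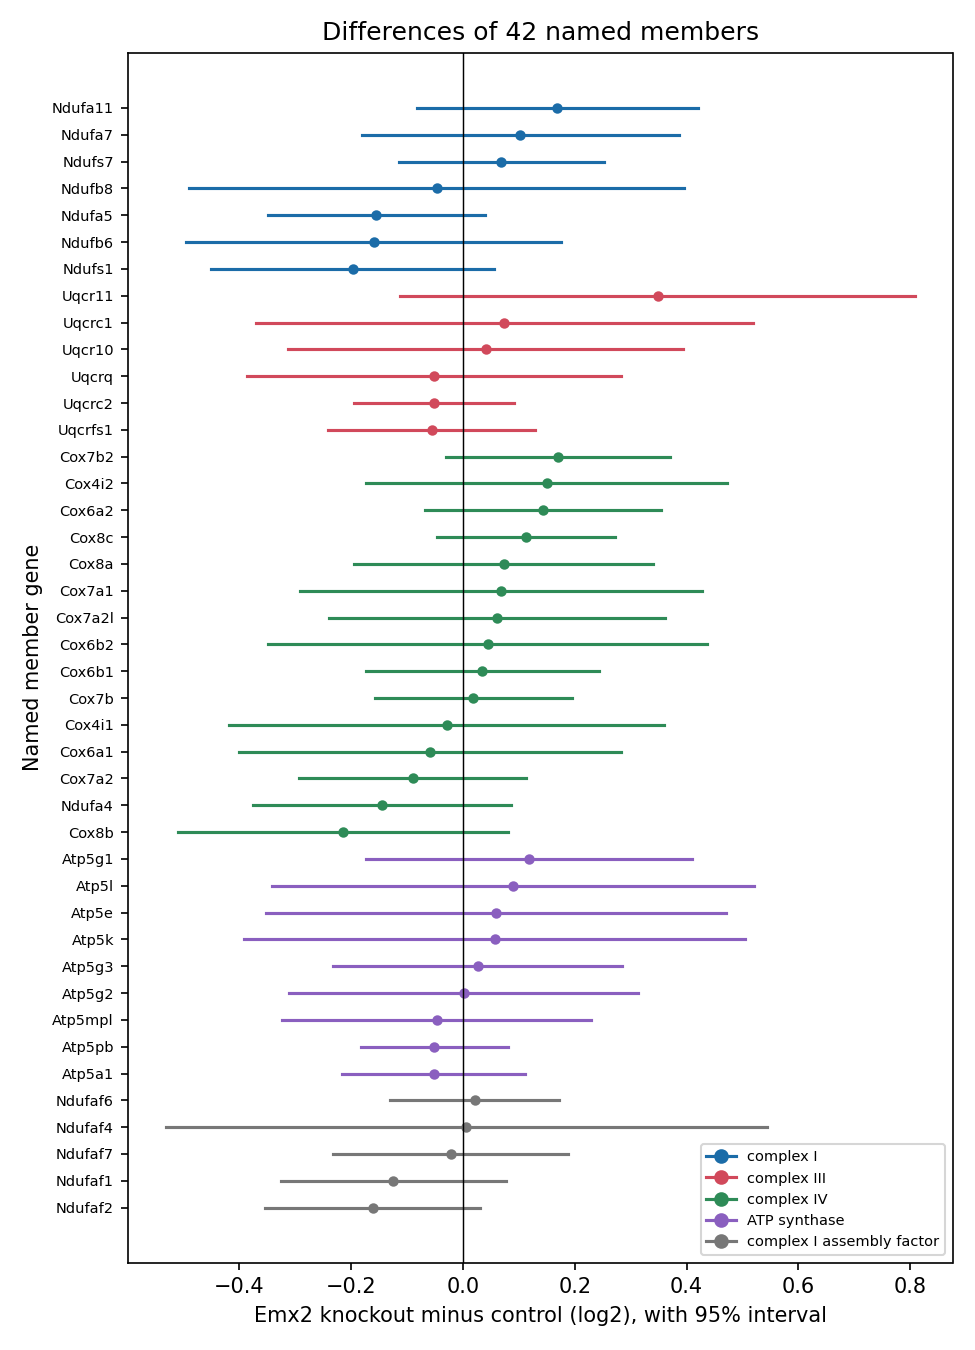
Difference (Emx2 knockout minus control, log2) of each of the 42 named members, with its 95% confidence interval from limma; colours stand for the complexes. Every interval crosses 0, and that of Uqcr11 is centred at 0.35.

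In complex I, 15 of 34 subunit genes were above 0 and 19 below (median difference -0.015). The core subunits carry the flavin and the iron-sulfur clusters along which electrons travel. Ndufs1, a core iron-sulfur subunit of the part that oxidises NADH, had the lowest difference. It was 10.29, 9.94, 10.40 and 10.38 in knockouts 1 to 4, against 10.51, 10.31, 10.50 and 10.48 in controls 1 to 4. The groups overlapped only through control 2, which lay below the other controls, and knockout 2 was the lowest sample (difference -0.20, SE 0.111, adjusted p 0.9). Ndufs7, the iron-sulfur subunit that hands electrons to ubiquinone, was 13.05, 13.30, 13.01 and 13.12 in knockouts, against 13.09, 13.11, 13.05 and 12.96 in controls (difference 0.07, SE 0.081). The mean over the 6 core subunits was 11.58, 11.79, 11.49 and 11.55 in knockouts and 11.68, 11.68, 11.61 and 11.59 in controls. Knockout 2 was above every control in that mean and the other knockouts were below them all, 11.58 against a lowest control of 11.59 in the nearest case.

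Among the 28 accessory subunits, which surround the core and are needed for its assembly and stability, Ndufa11 had the highest difference. It was 11.39, 11.45, 11.64 and 11.69 in knockouts, against 11.23, 11.41, 11.62 and 11.24 in controls (difference 0.17, SE 0.111, adjusted p 0.941). Ndufa11 belongs to the membrane arm. Its knockout samples lay above controls 1 and 4, both with Cre, and overlapped controls 2 and 3. Ndufa7 followed at 0.10. At the other end were Ndufb6, a membrane arm subunit, at -0.16 (SE 0.148), and Ndufa5, of the matrix arm, at -0.16 (SE 0.086, adjusted p 0.894). Ndufa5 was 8.92, 8.69, 8.65 and 8.83 in knockouts, against 8.98, 8.83, 9.04 and 8.86 in controls, and knockouts 2 and 3 lay below all controls. Ndufb8, another membrane arm subunit, had the widest range over the samples in complex I. It was 10.43, 10.92, 9.95 and 10.16 in knockouts, against 10.57, 10.57, 10.29 and 10.23 in controls. The highest and the lowest of its 8 values were both knockouts, and the difference was -0.05 (SE 0.195).

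The 7 assembly factors had a median difference of -0.022, with 2 above 0 and 5 below. Ndufaf4, which acts with Ndufaf3 early in the assembly of complex I, had the widest range of them. It was 9.44, 8.85, 9.76 and 9.89 in knockouts, against 9.45, 9.05, 9.68 and 9.74 in controls. Replicate 2 was the lowest and replicate 4 the highest in either group, and the means differed by 0.0062 (SE 0.237). Ndufaf2, a relative of the subunit Ndufa12 that is present during assembly, was 8.35, 8.10, 8.21 and 8.16 in knockouts, against 8.50, 8.23, 8.40 and 8.34 in controls (difference -0.16, SE 0.085, adjusted p 0.880). Ndufaf1 was lowest in knockout 1, at 9.30, with the other knockouts at 9.54 to 9.65 and the controls at 9.61 to 9.71 (difference -0.12, SE 0.089). Ndufaf6 and Ndufaf7 differed by 0.02 and -0.02.

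Complex III had 4 genes above 0 and 4 below (median difference -0.010). Uqcr11, a small subunit at the edge of the complex, had the largest difference of all members. It was 10.39, 10.85, 11.20 and 10.79 in knockouts, against 10.41, 10.47, 10.89 and 10.07 in controls (difference 0.35, SE 0.203, 95% interval -0.11 to 0.81, adjusted p 0.911). Knockout 1 lay among the controls and control 3 among the knockouts. The core subunit Uqcrc1 was 11.53, 12.03, 11.08 and 11.25 in knockouts, against 11.47, 11.61, 11.35 and 11.16 in controls. As with Ndufb8, knockouts held both its highest and its lowest value (difference 0.07, SE 0.196). Uqcrc2, the other core subunit, varied far less, over 0.19 from lowest to highest against 0.95 for Uqcrc1, and its difference was -0.05 (SE 0.063). Uqcrfs1, the Rieske iron-sulfur protein, differed by -0.06 (SE 0.082). The small subunits Uqcr10 and Uqcrq differed by 0.04 and -0.05.

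**Figure D2:**
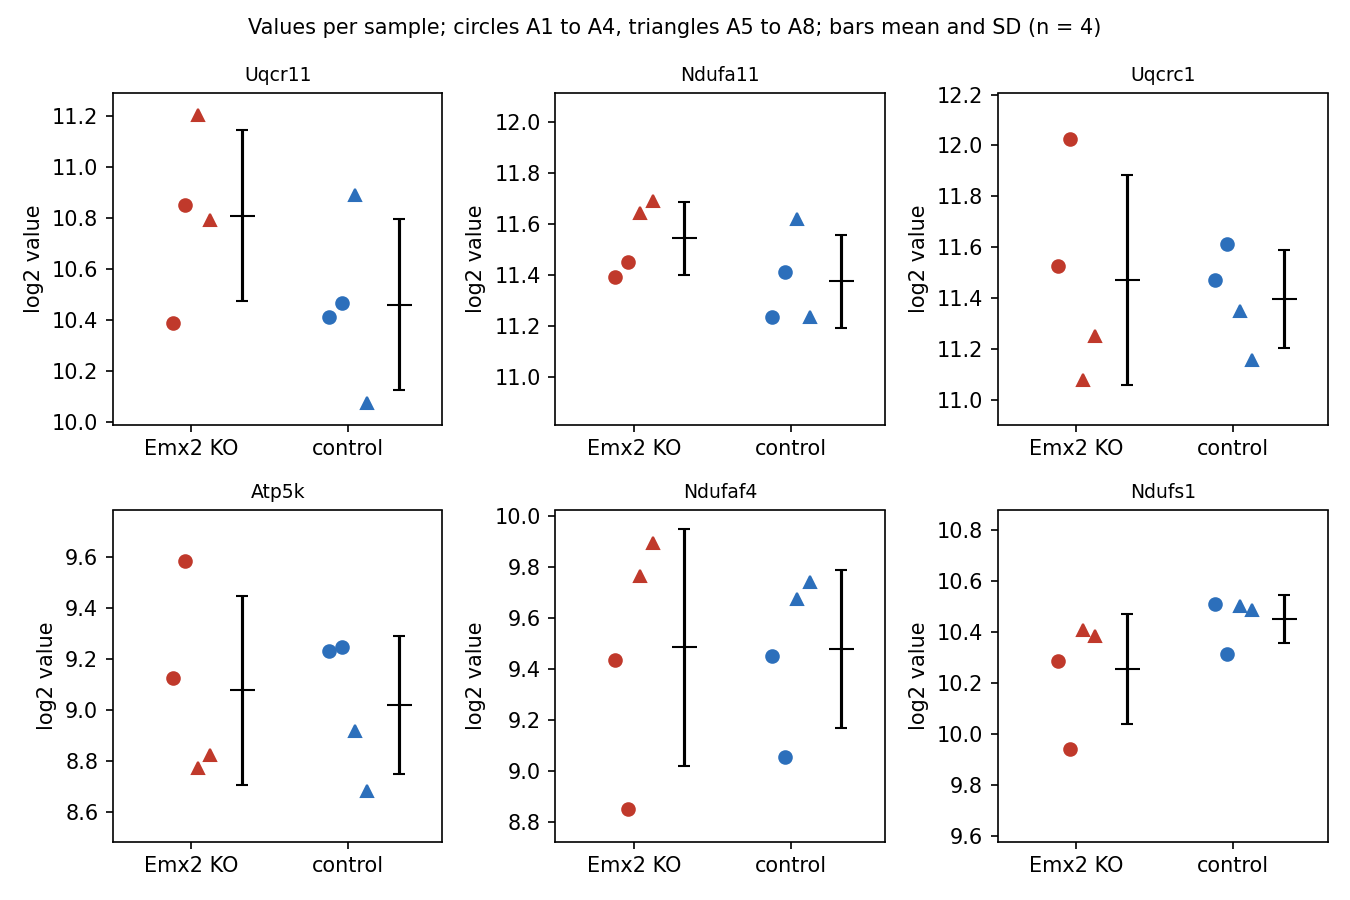
log2 value of 6 members in each sample, Emx2 knockouts left in red and controls right in blue, with circles for samples numbered A1 to A4 and triangles for A5 to A8; the bars are the mean and SD of 4 samples. The groups overlap in every panel, and the circle of knockout 2 is the highest point for Uqcrc1 and Atp5k and the lowest for Ndufaf4 and Ndufs1.

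In complex IV, 11 of 19 genes were above 0 and 8 below (median difference 0.035). Several of its nuclear subunits exist as isoforms that tissues use differently, so each pair or trio was set side by side by its differences. Cox4i1, the common form of subunit 4, was 11.29, 11.77, 10.96 and 11.09 in knockouts, against 11.30, 11.54, 11.25 and 11.14 in controls (difference -0.03, SE 0.171). Cox4i2, the form known from lung, was 8.25, 8.57, 8.01 and 7.85 in knockouts, against 8.09, 8.003, 7.96 and 8.03 in controls (difference 0.15, SE 0.142). All 4 Cox4i2 controls lay inside the range of the knockouts. Cox6a1 differed by -0.06 and its muscle form Cox6a2 by 0.14 (SE 0.093, adjusted p 0.938). Cox6a2 was 8.10, 8.04, 8.02 and 7.73 in knockouts, against 7.78, 7.78, 7.81 and 7.94 in controls, so that 3 knockouts lay above all controls and knockout 4 below them all.

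Most of the other isoforms of complex IV had a positive difference, while Cox8b and Cox7a2 had a negative one, and none was past a threshold. Cox8a, the common form, differed by 0.07, and Cox8b, the form of heart and skeletal muscle, had the lowest difference of all members. Cox8b was 9.57, 9.95, 9.60 and 9.67 in knockouts, against 10.18, 9.80, 10.02 and 9.66 in controls (difference -0.21, SE 0.130, adjusted p 0.920). Controls 2 and 4 lay among the knockouts, and controls 1 and 3 above them all. Cox8c, a testis form, was the member gene whose groups did not overlap. It was 7.76, 7.69, 7.75 and 7.75 in knockouts, against 7.47, 7.66, 7.68 and 7.68 in controls (difference 0.11, SE 0.070, adjusted p 0.928), and the lowest knockout was only just above the highest control. Cox7a1, the muscle form, differed by 0.07, Cox7a2 by -0.09 and Cox7a2l, which helps respiratory complexes to join in supercomplexes, by 0.06. Cox6b1 and its testis form Cox6b2 differed by 0.03 and 0.04. Cox7b differed by 0.02, and its testis form Cox7b2 by 0.17, the second-highest of all members (SE 0.088, adjusted p 0.872). Cox7b2 was 5.04, 4.91, 4.95 and 5.12 in knockouts, against 4.97, 4.64, 4.84 and 4.87 in controls. It and Ndufa4l2, a relative of Ndufa4, were the only members among the dimmest 30% of rows. Ndufa4, long listed with complex I and now known as a subunit of complex IV, was 10.79, 10.81, 10.51 and 10.47 in knockouts, against 10.82, 10.89, 10.81 and 10.65 in controls (difference -0.14, SE 0.101, adjusted p 0.953).

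ATP synthase had the narrowest set of differences, from -0.05 to 0.12 over 17 genes, with 7 above 0 and 10 below (median -0.028). The c subunit of the rotating ring is encoded by several genes that give the same mature protein. Of these, Atp5g1 differed by 0.12 (SE 0.129), Atp5g2 by 0.0017 (SE 0.138) and Atp5g3 by 0.03 (SE 0.114). Atp5g1 was 12.51, 12.85, 12.24 and 12.47 in knockouts, against 12.46, 12.54, 12.34 and 12.26 in controls, with knockouts at both ends. In the catalytic head, Atp5a1, the alpha subunit, differed by -0.05 (SE 0.072), and Atp5e, the epsilon subunit of the central stalk, by 0.06 (SE 0.181). Atp5k and Atp5l encode the membrane subunits e and g, which bind where synthase dimers meet. Atp5k was 9.13, 9.58, 8.77 and 8.82 in knockouts, against 9.23, 9.25, 8.92 and 8.68 in controls. It was high in the samples numbered A1 to A4 of both groups and low in A5 to A8, and its difference was 0.06 (SE 0.198). Atp5l differed by 0.09 (SE 0.190), and Atp5mpl, another small membrane subunit, by -0.05. Atp5pb, the b subunit of the peripheral stalk, was the steadiest of the named members, at 11.59 to 11.68 in knockouts and 11.67 to 11.71 in controls (difference -0.05, SE 0.058). A second row of Atp5pb was the other row whose groups did not overlap, at 11.14 to 11.23 in knockouts and 11.23 to 11.29 in controls, with the highest knockout only just under the lowest control (difference -0.06, SE 0.059).

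Rows of the same gene were set side by side. They can read the same transcript, so that their agreement is not an independent check. In the 17 genes with more than 1 member row (42 rows), the differences of 1 gene's rows lay within 0.056 of each other, and their lowest correlation over the 8 samples was 0.69. Another 6 rows name a member together with a second gene, such as Cox7c with Gm12338 or Ndufb4 with Ndufb4b, and were not members. Probes of short, abundant mRNAs such as these can also bind processed pseudogenes, which the symbols do not show.

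What the members shared was a pattern over the samples that ran across the groups. Knockout 2 was the highest of the 8 samples in 59 of 85 genes (69.4%, against 32.6% of all rows), and knockout 3 was the lowest in 46 (54.1%, against 17.6% of all rows). Control 4 was the lowest in another 14. The mean over all 85 genes was 10.63, 10.86, 10.51 and 10.56 in knockouts 1 to 4, against 10.70, 10.71, 10.62 and 10.55 in controls 1 to 4. The group means were 10.64 ± 0.152 in knockouts and 10.65 ± 0.077 in controls (SD, n = 4 each). With knockout 2 included, the spread among knockouts was thus far wider than the distance between the groups. The other knockouts lay between 10.51 and 10.63. Without knockout 2 the difference of this mean was -0.077, against -0.0056 with it. Over all rows, the median deviation of an array from the row means lay between -0.020 and 0.039. The deviation averaged over member genes lay between -0.133 in knockout 3 and 0.213 in knockout 2.

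**Figure D3:**
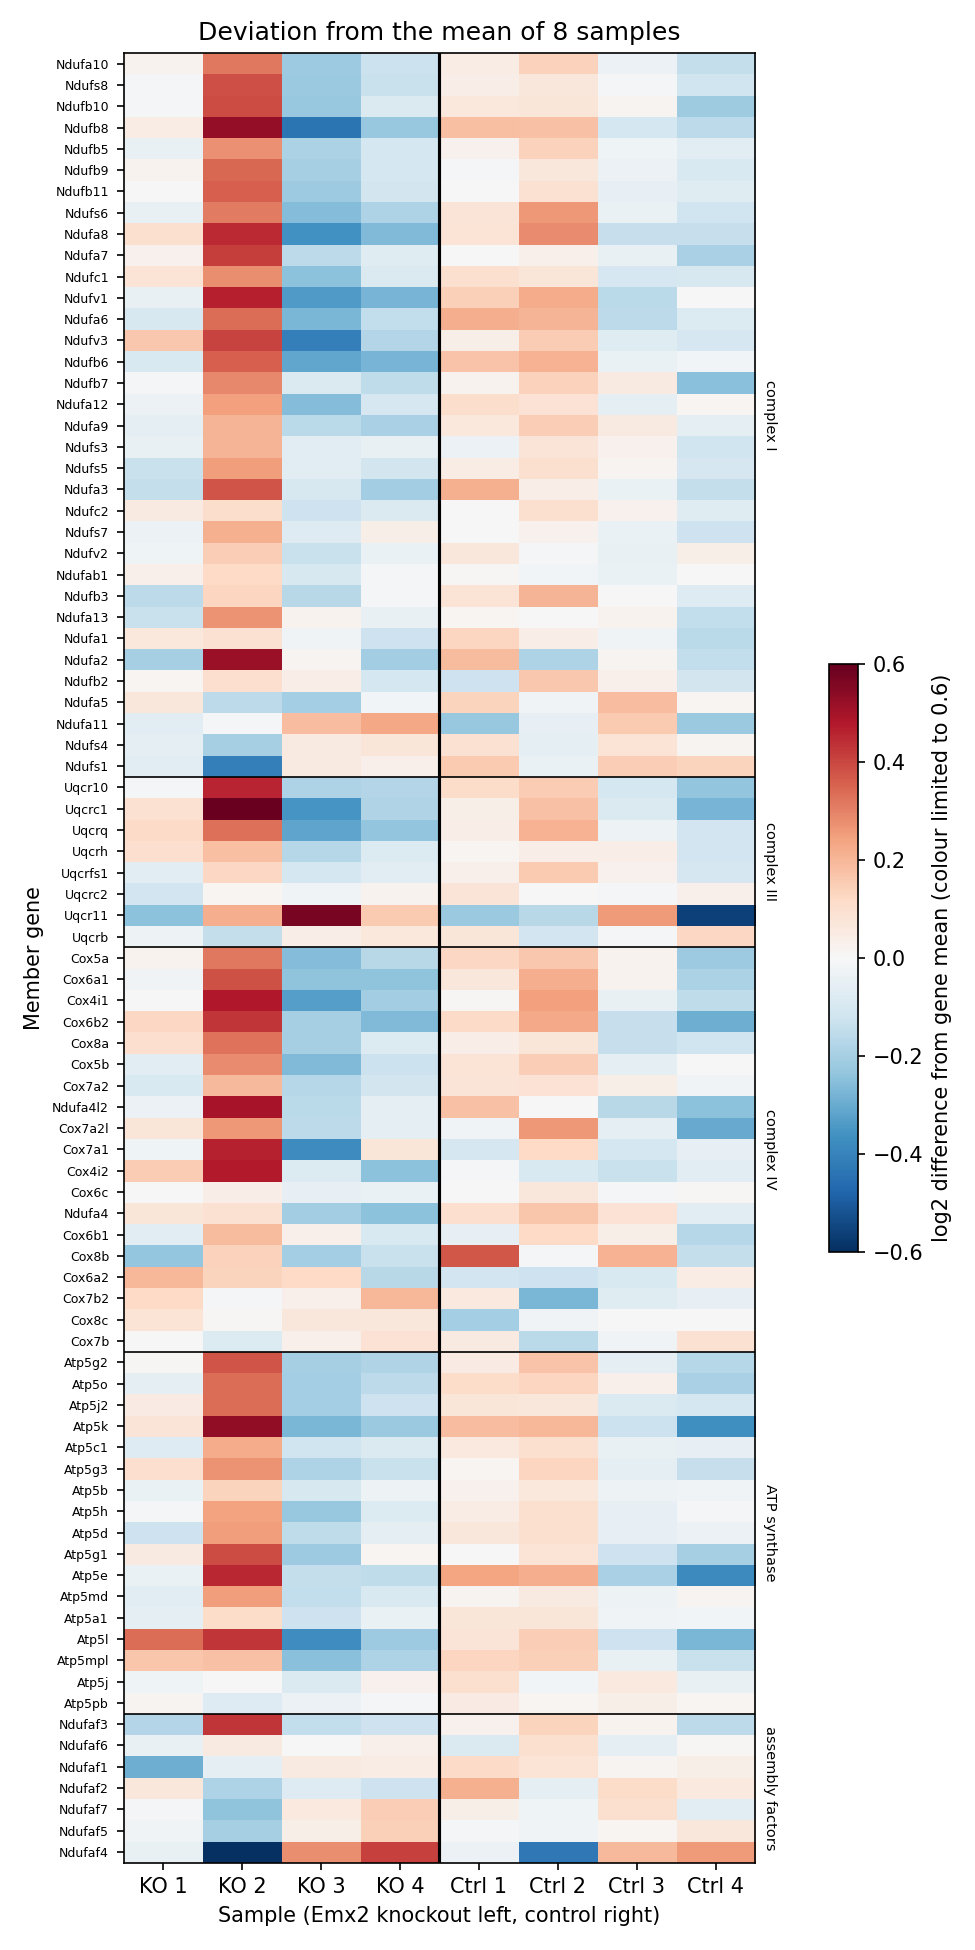
Deviation of each of the 85 member genes (rows, grouped by complex) from its mean over 8 samples, on the log2 scale with the colour limited to 0.6, Emx2 knockouts left and controls right of the line. The column of knockout 2 is red in most rows and that of knockout 3 blue, while most assembly factors and a few subunits such as Ndufs1 and Uqcr11 run otherwise.

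The pattern was shared unevenly. Each gene was correlated with the mean of the other 84 over the 8 samples, which share their arrays and scaling, so the values are given as a description. The median correlation was 0.895, 39 genes were above 0.9 and 65 above 0.5. In 15 genes it was below 0, and it was lowest for Ndufaf4 (-0.934). Of the 7 assembly factors, 5 were below 0, and knockout 2 was the highest sample for 1. In complex I, knockout 2 was highest for 27 of 34 genes and 4 were below 0. The counts were 15 of 17 and 1 for ATP synthase, 12 of 19 and 3 for complex IV, and 4 of 8 and 2 for complex III. Subunits below 0 included Ndufs1 (-0.738), Cox7b (-0.677), Cox8c (-0.378), Ndufa11 and Cox7b2 (-0.317 each), Atp5pb (-0.296) and Uqcr11 (-0.088). Uqcrb (-0.775) and Ndufs4 (-0.731), chosen after their values were seen, were also below 0. The other row of Ndufa11, which was not used here, had a correlation of 0.154, with knockout 2 highest. Of the 11 members with NRF-1 letters in their windows, knockout 2 was highest for 7 and 4 had a correlation below 0. Of the 59 without them, the counts were 44 and 8.

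The means of complexes I and IV and of ATP synthase followed the same samples. The complex I mean was 10.61, 10.87, 10.48 and 10.53 in knockouts, against 10.70, 10.72, 10.62 and 10.54 in controls. For complex IV it was 10.05, 10.27, 9.89 and 9.93 in knockouts, against 10.06, 10.09, 9.99 and 9.92 in controls. For ATP synthase it was 11.84, 12.09, 11.65 and 11.72 in knockouts, against 11.90, 11.93, 11.77 and 11.70 in controls. In each of these, knockout 2 was highest and knockout 3 lowest. The complex III mean was 11.12, 11.36, 11.07 and 11.08 in knockouts, against 11.16, 11.20, 11.15 and 10.99 in controls, with control 4 lowest. The assembly factor mean ran otherwise, at 8.84, 8.79, 8.94 and 8.99 in knockouts and 8.95, 8.88, 8.97 and 8.94 in controls, with knockout 2 lowest.

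**Figure D4:**
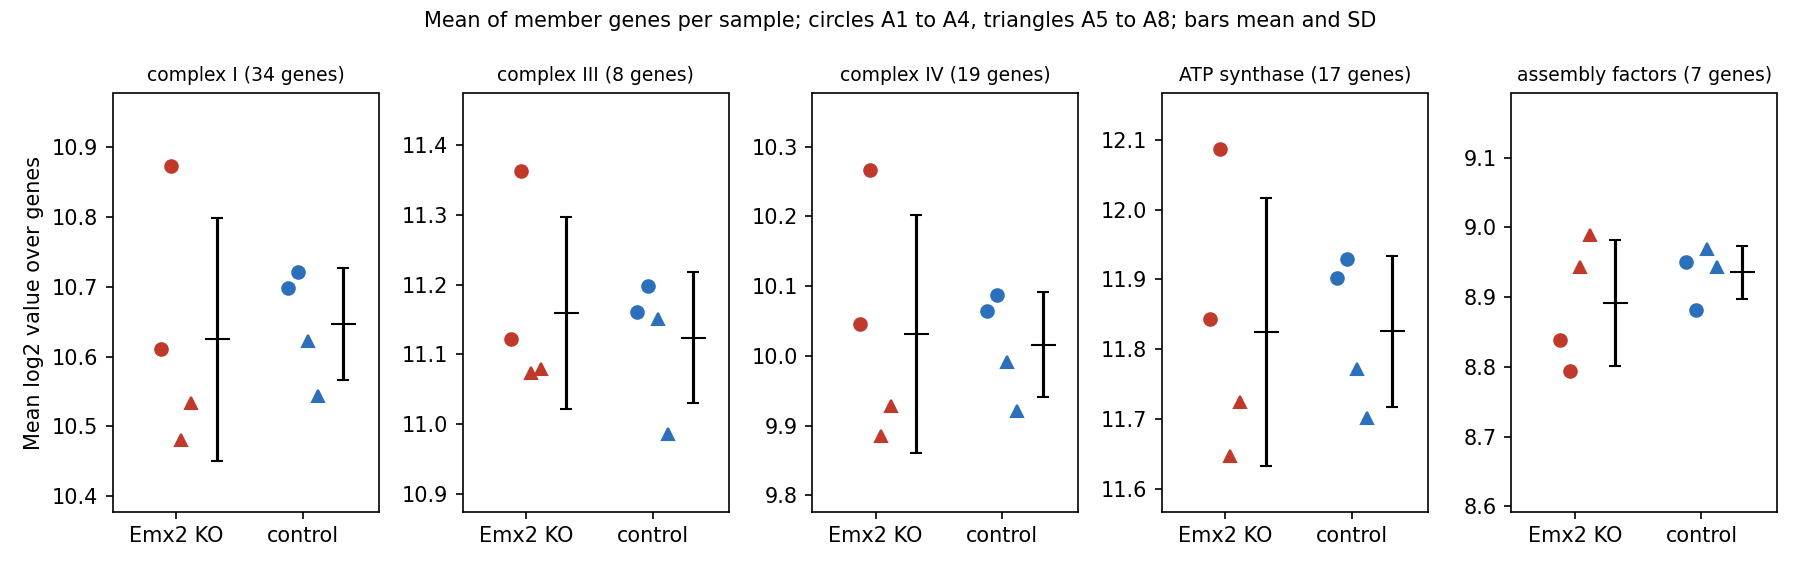
Mean log2 value over the member genes of each complex in each sample, Emx2 knockouts left and controls right in every panel, with circles for A1 to A4 and triangles for A5 to A8; the bars are the mean and SD of 4 samples. For complexes I, III and IV and ATP synthase the highest point is knockout 2, and the SD, which includes it, is wider in knockouts than in controls.

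Because each set of label numbers held 2 knockouts and 2 controls, the comparison could be made within each. Within A1 to A4 the median difference of member genes was 0.038, with 54 of 85 above 0, beside a median of 0.014 over all rows, of which 12393 of 23410 were above 0. Within A5 to A8 it was -0.061, with 21 of 85 above 0, beside -0.0032 over all rows, of which 11455 were above 0. The sets thus had opposite signs, and the difference between them was not tested. The set A1 to A4 holds knockout 2, the array that stood apart. There the mean over all 85 genes was 10.86 in knockout 2 and 10.63 in knockout 1, against 10.70 and 10.71 in controls 1 and 2. Knockout 1 thus lay below both controls of its set. With the set as a block in the limma fit, 0 of 110 rows passed an unadjusted p under 0.05, against 8.66% of all rows, and none passed the adjusted threshold. Uqcr11 was above 0 in both sets (0.18 and 0.52), as was Ndufa11 (0.10 and 0.24), and Ndufs1 (-0.30 and -0.10) and Cox8b (-0.23 and -0.20) were below 0 in both. Uqcrc1 had 0.23 in A1 to A4 and -0.09 in A5 to A8.

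**Figure D5:**
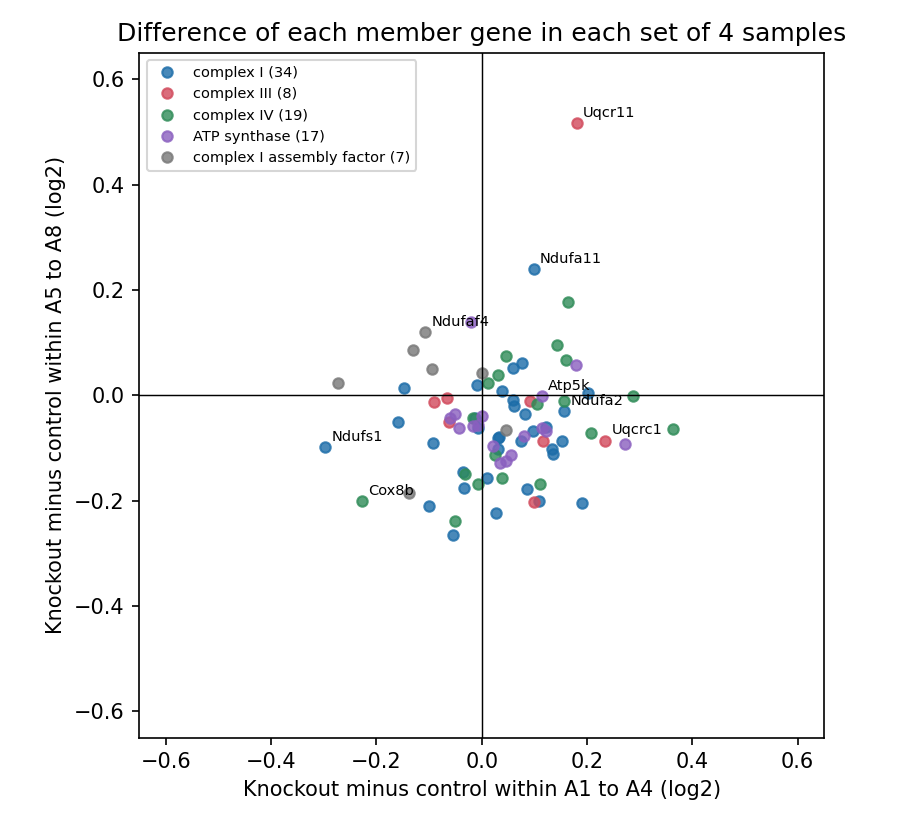
Difference (Emx2 knockout minus control, log2) of each member gene within the samples numbered A1 to A4 (horizontal axis) and within A5 to A8 (vertical axis), each from 2 knockouts and 2 controls, coloured by complex. More points lie in the lower right quadrant than in the upper left, and Uqcr11 lies farthest from 0.

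Without knockout 2, the median difference of member genes was -0.093, beside -0.0038 over all rows. In that fit 7 of 110 rows passed an unadjusted p under 0.05, against 9.99% of all rows, all of them lower in knockouts, and none passed the adjusted threshold. They stand for 6 genes. Ndufb6 had a difference of -0.31 (SE 0.092, adjusted p 0.319), Cox8b -0.30 (SE 0.121, adjusted p 0.468) and Cox7a2 -0.17 (SE 0.062, adjusted p 0.425). The others, chosen after their values were seen, were Ndufv1, the flavin-binding core subunit of complex I (-0.27), Cox5b, in 2 rows (-0.20 and -0.21), and Ndufa9 (-0.19). Of the 42 named members, 14 changed sign without knockout 2, another 16 moved by more than a factor of 1.5, and 12 did neither. Among those with the larger differences, Ndufs1 was then at -0.093, Cox4i2 at 0.016, Atp5g1 at 0.0070, Ndufa7 at -0.018 and Atp5l at -0.039. Uqcr11 (0.33), Ndufa11 (0.20), Cox7b2 (0.20), Cox6a2 (0.12), Ndufaf2 (-0.13) and Ndufa5 (-0.13) stayed within that factor. Ndufaf4 was at 0.22, Ndufb8 at -0.23, Uqcrc1 at -0.11 and Atp5k at -0.11. The median of the complexes without knockout 2 was -0.10 for complex I, -0.085 for complex III, -0.047 for complex IV and -0.098 for ATP synthase, and it was 0.0064 for the assembly factors.

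The genotype of the controls was separated in a fit with 3 genotypes. Against 123Cre:Emx2(fl/+) controls, which share Cre with the knockouts, 0 of 110 rows passed the adjusted threshold (0.179% of all rows did), the lowest adjusted p was 0.881, and the median difference of member genes was 0.014. Against Emx2(fl/fl) controls, without Cre, 0 of 110 rows passed (0.137% of all rows did), the lowest adjusted p was 0.861, and the median was -0.041. Uqcr11 differed by 0.57 from the 123Cre:Emx2(fl/+) controls and by 0.13 from the Emx2(fl/fl) controls, Ndufa11 by 0.31 and 0.03, and Ndufs1 by -0.24 and -0.15. For Uqcr11 and Ndufa11, the distance from the controls with Cre was thus the larger, with 2 samples in each control genotype.

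The rest of the pathway was read from lists of genes outside the rule, with 1 row per gene, and in the comparison over all 8 samples 0 genes of any list passed the adjusted threshold. Complex II, which the rule leaves out, had differences of -0.07 for Sdha, its flavin subunit, -0.03 for Sdhd, -0.02 for Sdhc and 0.0013 for the iron-sulfur subunit Sdhb. Cyc1, the cytochrome subunit of complex III, differed by 0.02, and Cycs, cytochrome c itself, by -0.03. Cycs was 12.04, 11.97, 12.99 and 12.58 in knockouts, against 12.37, 12.21, 12.63 and 12.48 in controls, so knockout 3, lowest for most members, was highest here. Of the subunits made from mitochondrial DNA, 2 symbols were found. ND3 of complex I was 13.02, 12.66, 13.06 and 13.11 in knockouts, against 12.93, 12.69, 12.85 and 13.17 in controls, and COX2 of complex IV was 13.51, 13.24, 13.57 and 13.52 in knockouts, against 13.46, 13.35, 13.39 and 13.63 in controls. Knockout 2, the highest sample for most nuclear members, was the lowest for both.

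Genes that build and regulate the complexes were read in the same way. Of 15 assembly factors of complex IV measured, 7 were above 0 and 8 below (median -0.079). Coa5 alone passed an unadjusted p under 0.05, as 6.1% of all rows did, with a difference of -0.15 (SE 0.064, adjusted p 0.818). The 9 assembly factors of complex I without an Nduf symbol had a median of -0.036, led by Timmdc1 at -0.15, and the 6 assembly factors of complex III a median of -0.025. Among 16 regulators of mitochondrial gene expression, 0 passed the unadjusted threshold and the median was -0.044. Tfam, which packages and transcribes mitochondrial DNA, had the largest difference there. It was 8.92, 8.35, 8.97 and 8.93 in knockouts, against 9.09, 8.84, 9.11 and 9.02 in controls (difference -0.22, SE 0.144, adjusted p 0.938), with knockout 2 lowest, and without that array the difference was -0.074. Gabpb1, a GABP subunit, differed by -0.15 (-0.098 without knockout 2), and Pprc1, a coactivator related to PGC-1 alpha, by 0.12 (0.051 without it). Of 12 enzymes of the TCA cycle, Idh3a, a subunit of isocitrate dehydrogenase, passed the unadjusted threshold, beside the same 6.1% of all rows. It was 10.54, 10.40, 10.49 and 10.67 in knockouts, against 10.86, 10.72, 10.71 and 10.77 in controls (difference -0.24, SE 0.077, adjusted p 0.660). Every knockout lay below every control, and the groups did not overlap in 4.52% of all rows. The 14 glycolytic enzymes had 3 above 0 and 11 below (median -0.015).

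Other gene families followed the samples in a like order. The mean over 77 mitochondrial ribosomal protein genes was 9.58, 9.81, 9.48 and 9.55 in knockouts, against 9.66, 9.69, 9.61 and 9.52 in controls. The mean over 67 cytosolic ribosomal protein genes was 11.24, 11.34, 11.13 and 11.16 in knockouts, against 11.24, 11.25, 11.16 and 11.13 in controls. In both, as in the members, knockout 2 was the highest sample, and knockout 3 was the lowest. The median differences of these families were -0.018 and 0.031, and no gene of either passed an unadjusted p under 0.05.

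Cell types, some of them rich in mitochondria, were read from marker lists. Their means are given here beside the members, and their part in the members' values was not tested. All 12 skeletal muscle markers had a difference above 0 (median 0.096, 2 past the unadjusted threshold, which 6.1% of all rows passed), and their mean was 7.44 to 7.67 in knockouts and 7.31 to 7.54 in controls. Myl1, a myosin light chain, was 7.66, 7.53, 9.12 and 9.17 in knockouts, against 8.37, 7.83, 7.76 and 7.28 in controls. Myl1 was highest in knockouts 3 and 4, but the markers of this list did not peak in the same samples. Actn3 was highest in knockout 2 (8.40), Ckm in knockout 1 (8.06) and Acta1 in control 2 (8.88). All 10 markers of respiratory ciliated cells were above 0 (median 0.25, 4 past the unadjusted threshold, beside the same 6.1%), with a mean of 9.97 to 10.34 in knockouts and 9.87 to 10.04 in controls. The mean of 14 mature OSN markers was 11.45 to 11.58 in knockouts and 11.54 to 11.68 in controls (median difference -0.11). Of these, 1 was higher past the unadjusted threshold, Cnga4 (0.27, adjusted p 0.771), and 3 were lower, among them S100a5 (-0.52, adjusted p 0.308) and Ano2 (-0.35, adjusted p 0.116). Over all rows, 6.1% passed that threshold. Without knockout 2, the array that stood apart, S100a5 was at -0.64 with an adjusted p of 0.00999 (limma). In that fit, 1 of 8 that leave out a sample, 132 of 23410 rows passed the adjusted threshold. The mean of 11 immature OSN markers was 11.31 to 11.39 in knockouts and 11.42 to 11.54 in controls (median -0.12), and 4 were lower past the unadjusted threshold. By the study's report, conditional Emx2 deletion left mature and immature OSN numbers unaffected. Olfactory bulb and brain markers averaged 7.68 to 7.85 in knockouts and 7.68 to 8.21 in controls. The 7 brown fat markers averaged 6.82 to 6.98 in knockouts and 6.83 to 6.91 in controls, the 3 erythroid markers 7.82 to 8.51 in knockouts and 8.30 to 8.52 in controls, and the 8 leukocyte markers 8.40 to 8.95 in knockouts and 8.46 to 8.83 in controls. The 7 sustentacular cell markers averaged 11.86 to 12.15 in knockouts and 11.90 to 12.07 in controls, and knockout 2 was lowest in that list.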

How the data were processed

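Biotin-labelled cRNA of each of the 8 olfactory mucosa samples was hybridised to 1 array, and the values are the log2 values per transcript cluster deposited by the authors. Affymetrix Expression Console is the tool in the submitters' processing notes. How it corrected background and normalized arrays is not stated in any source at hand. The study's methods state that equal amounts of total RNA were used and that data were further normalized to mature OSN mRNAs. Centring on mature OSN markers was therefore tried as an alternative to the deposited values. It used the 14 markers listed here, whose mean differed by -0.14, and not the study's much larger set. It is thus not the study's own normalization. Of 35557 rows, 21789 have 1 gene symbol in the platform annotation, 1621 have several and 12147 have none. All 85 member genes matched the RefSeq gene table (GRCm38.p6) by gene number. Promoter windows were taken from RefSeq for 70 of them.

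A two-sided test of knockouts against controls was fitted without covariates in limma 3.58.1 (R 4.3.3, lmFit, then eBayes) to all 23410 rows with a symbol, with Benjamini-Hochberg adjustment across them. Where a gene has several rows, the row with the highest mean was used. The number of arrays limits the precision. The study's methods used t tests, and the methods' t-test was an alternative, as were quantile normalization, centring on the median of all rows, leaving out the dimmest 30% of rows, all rows of the table, array weights, robust fitting with a variance trend, the sets A1 to A4 and A5 to A8 as a block, each control genotype alone, assembly factors left out, and each sample left out in turn.

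The 42 members named by rule were up to 3 with the highest difference above 0 and up to 3 with the lowest below 0 in each complex and among the assembly factors, the isoform pairs of complex IV and the c subunit, and the 5 with the widest range over the samples. Up to 4 genes of any other list with the largest differences were named too, together with Emx2, Omp and Gap43. The members, lists and named-gene rule were chosen with earlier results of these data known. Differences within a set of label numbers have no test.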

Additional observations from a re-analysis of the deposited data

Results flagged for a closer look

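Of 96 sets of 4 values examined (the 42 named members and the 6 sample means of all members, the complexes and the assembly factors, in each group), 3 held a sample whose gap to its nearest neighbour took up more of the group's range than Dixon's 95% limit for 4 samples. Chance alone gives such a gap in about 1 in 20 groups.

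Ndufs1, a core subunit of complex I, was 10.31 in control 2, against 10.48 to 10.51 in the other controls (gap over range 0.873). Control 2 was also the control through which the groups overlapped for this gene.

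Cox8c, a testis isoform of complex IV, was 7.47 in control 1, against 7.66 to 7.68 in the other controls (gap over range 0.879).

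The mean of the 8 complex III genes was 11.36 in knockout 2, against 11.07 to 11.12 in the other knockouts (gap over range 0.831). Without knockout 2 the mean over complex III was 0.032 lower in knockouts than in controls, and with it the mean was 0.035 higher.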

How the results depend on the processing

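No member passed an adjusted p under 0.05 in any of the alternatives run, and the count stayed at 0 with the sets A1 to A4 and A5 to A8 as a block. At an unadjusted p under 0.05, 0 member rows passed in the main comparison. With arrays centred on mature OSN markers 7 passed, all higher in knockouts, beside 17% of all rows. With array weights 8 passed, 1 higher and 7 lower, beside 14.7% of all rows. Against 123Cre:Emx2(fl/+) controls alone 4 passed, all higher, beside 3% of all rows. Against Emx2(fl/fl) controls alone 1 passed (higher, beside 4.58%), and by the methods' t-test 1 passed (lower, beside 7.08%). Leaving out each sample in turn gave 0 to 7. The count was 7 without knockout 2 (9.99% of all rows), 3 without knockout 1 (3.61%) and 3 without control 3 (3.48%). It was 1 without knockout 4 (5.87%) or control 1 (4.57%), 2 (5.56%) or 4 (5.85%), and 0 without knockout 3 (7.06%). Leaving out knockout 2 with the sets as a block, chosen after seeing the data, gave 10, all lower (13.3% of all rows). The median difference of member genes was 0.12 with centring on mature OSN markers, which moved the median of all rows to 0.14. Otherwise it ran from -0.093 without knockout 2 to 0.038 within A1 to A4, so that its sign was not kept. No paired analysis was possible because the labels number the samples without tying a knockout to a control. Depth cannot be read from these arrays.

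Small differences of named members changed sign under some settings, and none of them was past a threshold in the main comparison. With arrays centred on mature OSN markers the differences that turned positive were Atp5a1 0.086, Atp5mpl 0.091, Atp5pb 0.086, Cox4i1 0.11, Cox6a1 0.078, Cox7a2 0.048, Ndufaf1 0.013, Ndufaf7 0.12, Ndufb8 0.091, Uqcrc2 0.086, Uqcrfs1 0.082 and Uqcrq 0.086. With arrays centred on the median of all rows, Ndufaf7 became 0.00048. With array weights, Atp5e -0.036, Atp5g2 -0.11, Atp5g3 -0.056, Atp5k -0.10, Atp5l -0.062, Cox4i2 -0.0056, Cox6b1 -0.030, Cox6b2 -0.086, Ndufa7 -0.014, Ndufaf7 0.033, Uqcr10 -0.080 and Uqcrc1 -0.094 had the other sign. Against Emx2(fl/fl) controls alone, Atp5g2 -0.058, Atp5g3 -0.023, Atp5k -0.0063, Cox6b1 -0.059, Cox6b2 -0.024, Cox7a2l -0.069, Ndufaf6 -0.0065, Uqcr10 -0.0024 and Uqcrc1 -0.0090 did, and against 123Cre:Emx2(fl/+) controls alone, Cox4i1 0.057, Cox6a1 0.031, Cox7b -0.063, Ndufaf4 -0.11, Ndufaf7 0.0018, Uqcrfs1 0.0066 and Uqcrq 0.012. Leaving out each sample in turn, the members whose difference changed sign had these ranges: Atp5e -0.082 to 0.15, Atp5g2 -0.12 to 0.069, Atp5g3 -0.060 to 0.093, Atp5k -0.11 to 0.16, Atp5l -0.039 to 0.23, Atp5mpl -0.11 to 0.029, Cox4i1 -0.19 to 0.075, Cox6a1 -0.20 to 0.012, Cox6b1 -0.023 to 0.080, Cox6b2 -0.091 to 0.14, Cox7a1 -0.075 to 0.20, Cox7a2l -0.029 to 0.16, Cox7b -0.032 to 0.051, Cox8a -0.023 to 0.15, Ndufa7 -0.018 to 0.17, Ndufaf4 -0.14 to 0.22, Ndufaf6 -0.0036 to 0.056, Ndufaf7 -0.075 to 0.055, Ndufb8 -0.23 to 0.091, Uqcr10 -0.11 to 0.11, Uqcrc1 -0.11 to 0.20 and Uqcrq -0.17 to 0.045. The cause was not tested.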
